A study of Mus musculus with 3 samples.

Results

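RNA polymerase II and the kinases that phosphorylate its tail were examined for PHF10 occupancy in mouse brain chromatin. The 6 genes were Polr2a, which encodes the largest subunit of the polymerase, and Cdk7, Cdk8, Cdk9, Cdk12 and Cdk13, which encode kinases of the C-terminal domain (CTD). A gene was counted as occupied when a PHF10 peak lay within 1000 bp of any of its annotated transcription start sites (TSSs, GENCODE M21). The genes were selected from results of these same peak lists, the fold of the Polr2a site among them, so all values of their sites are a description and were not tested. Of the 6 genes, 2 had a peak, Polr2a in both replicates and Cdk12 in replicate 2 only, out of 308 of 21951 annotated protein-coding genes.

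The data came from 2 PHF10 immunoprecipitations (ChIP-seq) and 1 control immunoprecipitation with rabbit IgG, which the labels call preimmune, each from C57BL/6 mouse brain chromatin at postnatal day 120. The sample protocols describe chromatin from a single whole brain, but the design text of the series names cerebellum and a younger age. The peak identifiers also carry a cerebellum label. The tissue and the age are thus uncertain. No treatment or genetic change was applied, and the antibody recognises every PHF10 isoform, so the isoform at a site is not resolved. PHF10 is a subunit of PBAF, a SWI/SNF-type complex that moves nucleosomes. The form of PBAF described in mature neurons (dcPBAF) carries PHF10D, an isoform without the histone-binding double PHD finger.

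RNA polymerase II transcribes the protein-coding genes of the nucleus. Its largest subunit ends in the CTD, a long tail of repeated heptads whose serines are phosphorylated as transcription proceeds. CDK7, part of the general factor TFIIH, acts at initiation, and CDK8 belongs to a module of the Mediator complex. CDK9, the kinase of P-TEFb, releases paused polymerase into elongation. CDK12 and CDK13 are close relatives of each other, pair with cyclin K and act on elongating polymerase, and CDK12 is known for its role in the expression of long genes. Neurons depend on sustained transcription of long genes throughout adult life.

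The parts of the PHF10 peaks that lie upstream of the first annotated TSS are shown for Polr2a and Cdk12, the occupied members, and for Hexim1, the other gene of the polymerase II pathway with a peak in both replicates. All 3 were read from the GRCm38 (mm10) genome, 5′ to 3′ on the coding (sense) strand of each gene, and no annotated exon overlaps them. Capitals mark a TATA box (TATAAA) or a GC box (GGGCGG).
Polr2a, chr11:69758638-69758806, minus strand: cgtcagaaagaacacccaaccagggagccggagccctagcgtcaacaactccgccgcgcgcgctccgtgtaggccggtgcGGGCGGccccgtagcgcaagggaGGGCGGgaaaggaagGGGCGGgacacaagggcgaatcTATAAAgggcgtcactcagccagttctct
Cdk12, chr11:98202640-98202851, plus strand: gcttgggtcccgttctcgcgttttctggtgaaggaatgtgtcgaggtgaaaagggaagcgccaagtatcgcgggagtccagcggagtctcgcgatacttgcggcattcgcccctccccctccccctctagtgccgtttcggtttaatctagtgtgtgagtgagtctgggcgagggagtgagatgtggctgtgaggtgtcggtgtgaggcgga
Hexim1, chr11:103116151-103116230, plus strand: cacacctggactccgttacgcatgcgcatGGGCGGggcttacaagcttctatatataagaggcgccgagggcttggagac

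The Polr2a stretch of 169 bp had a GC content of 65.7% with 18 CpG dinucleotides. Its TATA box began 29 bp upstream of the first annotated TSS, and its 3 GC boxes began 51, 66 and 89 bp upstream. The Cdk12 stretch, which is the whole peak of 212 bp, had a GC content of 59.0% with 17 CpG dinucleotides and held neither motif. The Hexim1 stretch of 80 bp held 1 GC box, 51 bp upstream of the TSS. Only the exact letters TATAAA were marked, so its stretch tatatataag was not counted as a TATA box.

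Polr2a (ENSMUSG00000005198.15, chromosome 11 of mm10, 69733997 to 69758637, minus strand) had a PHF10 peak at its start in both replicates. In replicate 1 the peak covered 69758198 to 69758764, with a width of 567 bp and a fold enrichment over the IgG background of 17.1. In replicate 2 it covered 69758148 to 69758806, with a width of 659 bp and a fold of 13.2. The −log10 p of the peak was 49.1 in replicate 1, rank 1 of 251, and 34.0 in replicate 2, rank 4 of 141. The mean fold was 15.2 ± 2.74 (SD, n = 2). By fold the peak ranked 1 of 251 in replicate 1 and 2 of 141 in replicate 2, and by width it ranked 4 and 2.

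The only peak with a higher fold in replicate 2 lay at Tob1, an antiproliferative gene, at 13.5. At the Polr2a summits, the deposited fold and p gave 66 fragments in replicate 1 and 42 in replicate 2. The medians over all peaks of the lists were 22 and 20. The 95% exact Poisson intervals of these fragment numbers were 51.0 to 84.0 and 30.3 to 56.8, which correspond to folds of 13.3 to 21.7 and 9.63 to 17.8. The intervals of the replicates overlapped, and they cover counting error only. The IgG background at both summits was 1.85 fragments, the genome-wide value, so the IgG library had no local excess there.

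The summits of the replicates lay 5 bp apart, at 69758576 and 69758571. Over the 89 shared sites, which had a peak in each replicate, the median distance between summits was 34 bp (largest, 295 bp), and 9 sites had summits within 5 bp. The Polr2a summits were 61 and 66 bp downstream of the start of transcript Polr2a-201, in the 5′ untranslated part of its first exon (69758131 to 69758637). The peaks of both replicates also covered the annotated start of a further transcript, Polr2a-202, 353 and 348 bp downstream of the summits. That start, at 69758223, directly follows the 5′ untranslated part of Polr2a-201 (69758224 to 69758637). Whether it is a separate start of transcription was not tested. No TSS of another gene lay within 1000 bp of the Polr2a peaks. Of all 303 merged sites, 156 covered at least 2 TSSs, so this is common among PHF10 sites.

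**Figure D1:**
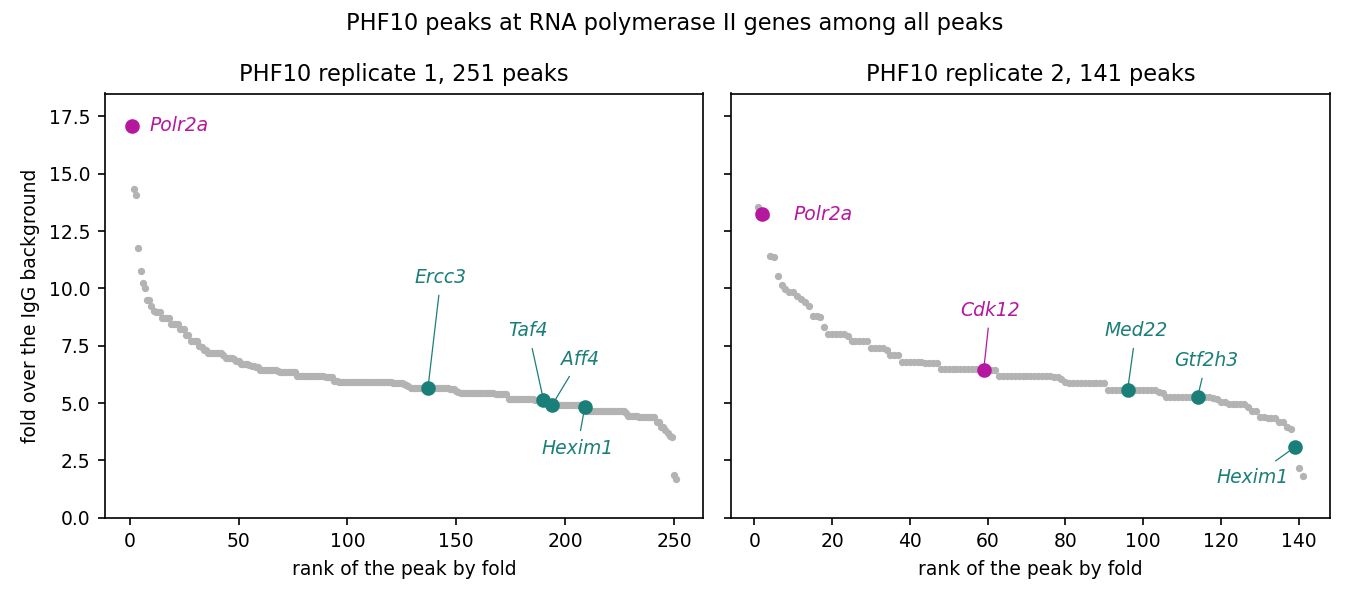
All PHF10 peaks of each replicate in order of fold over the IgG background (vertical axis), with Polr2a and Cdk12 in magenta and 6 other genes of the polymerase II pathway in green; tied folds are in arbitrary order. Polr2a stands at the top in replicate 1 (17.1) and second in replicate 2 (13.2), Cdk12 lies near the middle of replicate 2 (6.45), and the other genes lie at 5.68 or below.

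Between replicates, the log2 ratio of the Polr2a folds (replicate 1 over replicate 2) was 0.37, and over the 89 shared sites this ratio had a median of 0.04 and ranged from −0.93 to 0.76. The difference between the Polr2a replicates thus lay within the range of the other shared sites. The mean fold of Polr2a was the highest of the 89 shared sites and of all 303 merged sites. The sites most like it, by Euclidean distance of the log2 folds over the 2 replicates, were those at the small nuclear RNA gene Gm22068 (distance 0.26) and at the long noncoding RNA gene Malat1 (0.36). A TSS of Tex14 also lay within 1000 bp of the Gm22068 site, and a TSS of Gm37376 within 1000 bp of the Malat1 site. The mean folds of the Gm22068 and Malat1 sites were 13.7 ± 0.824 and 12.7 ± 1.88 (SD, n = 2). In replicates 1 and 2 the folds were 14.32 and 13.15 at Gm22068 and 14.05 and 11.39 at Malat1. These were below the Polr2a folds of 17.10 and 13.23 in the same replicates. Both sites were picked for their closeness to Polr2a, so nothing is read from that closeness.

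**Figure D2:**
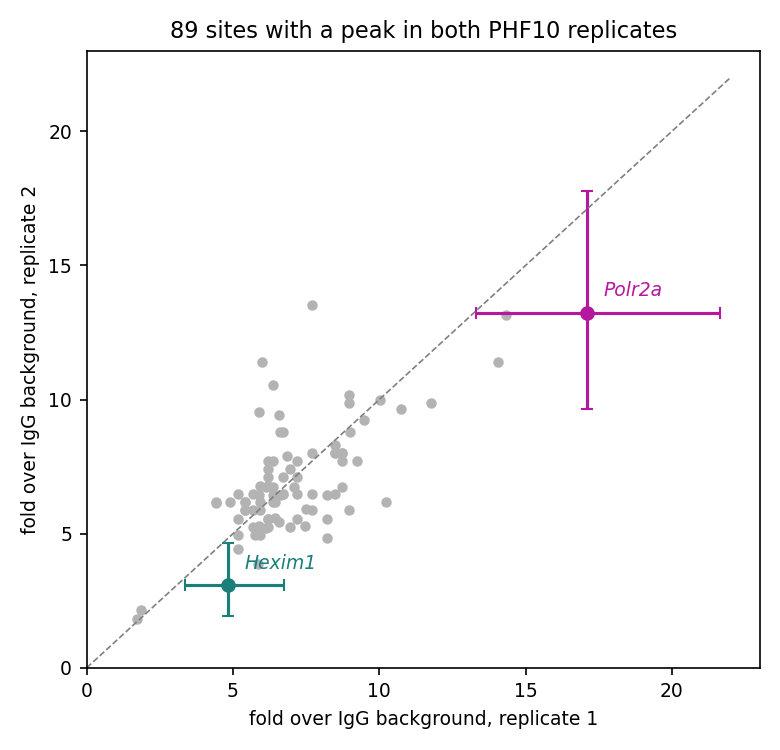
Fold over the IgG background in replicate 1 (horizontal axis) and replicate 2 (vertical axis) at the 89 shared sites, with equal folds along the dashed line. Bars on Polr2a and Hexim1 are 95% counting intervals. Polr2a (17.1 and 13.2) lies at the upper right and Hexim1 (4.83 and 3.08) at the lower left, both below the line.

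Around the Polr2a summits (201 bp), the GC content was 55.7% in replicate 1 and 55.2% in replicate 2, against medians of 66.2% over the peaks of either list. Of all peaks in the lists, 209 of 251 and 109 of 141 had a higher GC content than Polr2a. The CpG number was 13 and 12, against medians of 19 and 20. The site with the highest mean fold was thus among the less CpG-dense of the PHF10 sites at its summit.

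RefSeq promoter sequences (GRCm38.p6, 250 bp before to 50 bp after each start) were matched for all 6 members. Motifs were searched on both strands in these windows, and a match is a description of letters only. A TATA box (TATAAA) was found at Polr2a alone among the 6, and in 13.6% of all 32851 promoters. GC boxes (GGGCGG) were found at all 6 members, with 3 at Polr2a, 2 each at Cdk7, Cdk8 and Cdk12, and 1 each at Cdk9 and Cdk13, and in 35.7% of all promoters. At least 3 GC boxes were held by 10.7% of all promoters, a TATA box on the strand of the gene starting 20 to 35 bp before the start by 1.84%, and both of these, as at Polr2a, by 24 promoters (0.0731%). This combination was chosen after the Polr2a sequence was seen.

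The ETS core (CCGGAA) was present at Cdk7, Cdk9 and Cdk13 and in 14.9% of all promoters, the CCAAT box (CCAAT) at Cdk9 and in 37.4%, and the E-box (CACGTG) at Cdk7 and Cdk8 and in 7.15%. The cyclic AMP response element (TGACGTCA) was found at no member and in 1.79% of all promoters. In CpG number, the 6 promoters ranged from 19 at Cdk7 to 52 at Cdk13, with 30 at Polr2a and 27 at Cdk12, against a median of 7 over all promoters. All 6 were thus CpG-rich, with or without a PHF10 peak.

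Cdk12 (ENSMUSG00000003119.14, chromosome 11, 98203059 to 98278504, plus strand) had a peak in replicate 2 only, from 98202640 to 98202851. It had a fold of 6.45, its −log10 p was 12.2, and its summit at 98202716 was covered by 21 fragments (95% interval, 13.0 to 32.1) over an IgG background of 2. In fold it ranked 58 of 141, together with 4 other peaks of the same fold, and 56.0% of the peaks of replicate 2 had a lower fold. The Cdk12 peak was thus close to the middle of its list, and its width ranked 103 of 141.

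The Cdk12 peak lay wholly upstream of the gene. Its near edge was 208 bp, and its summit 343 bp, from the first annotated TSS (Cdk12-203). The summit was 598 and 619 bp upstream of the starts of Cdk12-201 and Cdk12-202. No TSS of another gene lay within 1000 bp of the peak, and no annotated exon or gene covered its summit. The summit region had a GC content of 58.2% and 18 CpG dinucleotides, against medians of 66.2% and 20 in replicate 2. Among sites called in replicate 2 alone, the nearest in fold were those at Sirt1, Nufip2 and Tbc1d13, each at 6.48.

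No peak was listed near Cdk12 in replicate 1, where the nearest peak on the chromosome was 2912.497 kb from a Cdk12 TSS. The smallest number of fragments at any listed summit was 15 in replicate 1 and 13 in replicate 2. A weaker signal at Cdk12 in replicate 1 was not detectable in a list that holds called peaks only. Of the 303 merged sites, 52 were called in replicate 2 alone and 162 in replicate 1 alone.

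The kinase genes Cdk7, Cdk8, Cdk9 and Cdk13 had no PHF10 peak within 1000 bp of a TSS in either replicate. The nearest peaks to Cdk7 (ENSMUSG00000069089.8, chromosome 13, 100702631 to 100730939, 5 TSSs) were 1195.231 kb away in replicate 1 and 1195.319 kb in replicate 2. For Cdk8 (ENSMUSG00000029635.15, chromosome 5, 146231230 to 146302874, 8 TSSs) the distances were 999.519 and 999.404 kb. For Cdk9 (ENSMUSG00000009555.16, chromosome 2, 32705784 to 32713076, 9 TSSs) they were 248.442 and 2041.358 kb, and for Cdk13 (ENSMUSG00000041297.8, chromosome 13, 17710315 to 17805097, 7 TSSs) 11878.212 and 5725.923 kb. The distances that bound the 1000 bp limit were thus 208 bp at Cdk12, inside it, and 248442 bp at Cdk9, outside it. Cdk13, the relative of Cdk12, had no peak in the replicate in which Cdk12 had one.

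**Figure D3:**
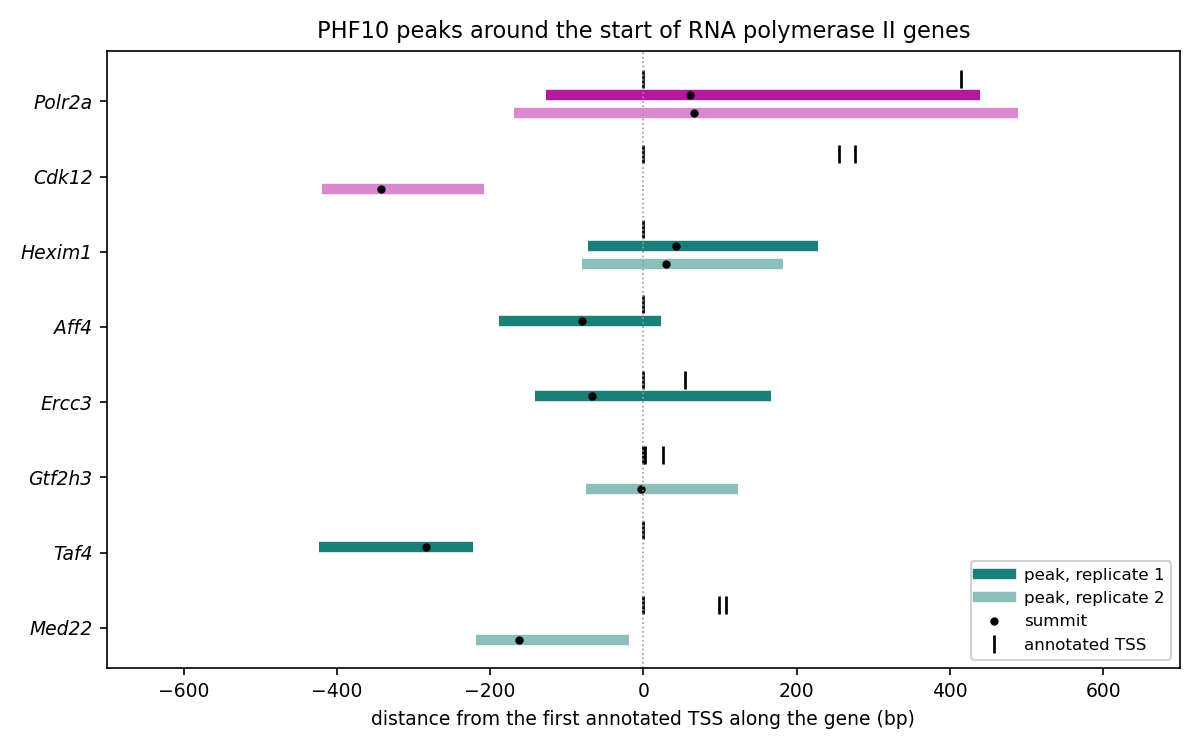
Position of the PHF10 peaks (bars, full colour for replicate 1 and pale for replicate 2; members in magenta) and their summits (dots) relative to the first annotated TSS of each gene, in bp along the gene, with ticks for annotated TSSs within the range shown. The Polr2a peaks span the starts of Polr2a-201 and Polr2a-202, whereas the Cdk12 peak ends 208 bp upstream of its first start.

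The shares of occupied members can be set beside the whole annotation. Among all protein-coding genes, 1.4% had a peak within 1000 bp of a TSS in either replicate and 0.401% had one in both. Since the members were selected with these peaks known, nothing is read from their 2 of 6 and 1 of 6.

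The other 126 genes of 6 polymerase II lists were then looked up, namely the remaining subunits, the cyclins and partners of the kinases, CTD phosphatases and CTD-binding factors, general transcription factors, Mediator subunits, and pausing and elongation factors. Of these, 7 (5.56%) had a PHF10 peak in either replicate and 1, Hexim1 (0.794%), in both. The lists were also written with earlier results of these data known, and their counts were not tested. The median fold of the 7 sites was 5.26, against 5.68 over all 287 sites within 1000 bp of a TSS. No peak was listed at the other 12 subunits of polymerase II, at the cyclins of the kinases (Ccnh, Ccnc, Ccnt1, Ccnt2 and Ccnk) or at any of 13 CTD phosphatases and CTD-binding factors. In lists of this size, such absences are near the share of 1.4% over all protein-coding genes, so nothing is read from them.

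Of 32 pausing and elongation factors, 9.38% had a peak in either replicate, against 1.4% of all protein-coding genes (not tested). Hexim1 and Aff4 were among those with a peak, and both encode proteins that bind P-TEFb, the complex of CDK9. Hexim1 (chromosome 11, 103116231 to 103119725, plus strand) encodes an inhibitor that holds P-TEFb in the 7SK particle. Its fold was 4.83 in replicate 1 and 3.08 in replicate 2, with summits 42 and 29 bp downstream of the TSS. At these summits the fold and p gave 32 and 20 fragments over a local IgG background of 4 and 5 fragments, above the genome-wide 1.85. In fold the peak ranked 209 of 251 in replicate 1 and 139 of 141 in replicate 2, where the q value was 0.169. Hexim1 was therefore called in both replicates with a low fold rank in each, and more weakly in the second.

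Aff4 (chromosome 11, 53350833 to 53421830), the scaffold of the super elongation complex that contains P-TEFb, had a peak in replicate 1 only, with a fold of 4.92, 18 fragments and a summit 80 bp upstream of the TSS. The gene of the 7SK RNA itself, Rn7sk, and those of its partners Larp7 and Mepce had no peak.

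Among 32 general transcription factors, Ercc3, Gtf2h3 and Taf4 had a peak, each in 1 replicate. This is 9.38% of that list, against 1.4% of all protein-coding genes, and the difference was not tested. Ercc3 and Gtf2h3 encode subunits of TFIIH, the factor that also contains CDK7, and Taf4 encodes a subunit of TFIID. Ercc3 (chromosome 18, 32240300 to 32270151) had a fold of 5.68 in replicate 1. Gtf2h3 (chromosome 5, 124579140 to 124597680) had a fold of 5.26 in replicate 2, and its summit was 3 bp from its own TSS and 6 bp from that of Eif2b1. Taf4 (chromosome 2, 179912152 to 179976646) had a fold of 5.15 in replicate 1, with the summit 284 bp upstream of its TSS and 77 bp from the start of the noncoding gene 4921531C22Rik.

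Of 33 Mediator subunit genes, 1 (3.03%) had a peak, against 1.4% of all protein-coding genes, and this was not tested. It was Med22 (chromosome 2, 26905262 to 26910677), with a peak in replicate 2 at a fold of 5.56. Its summit was 162 bp from the Med22 TSS and 18 bp from that of the ribosomal protein gene Rpl7a. The Gtf2h3 peak can thus not be assigned to 1 promoter by position. At Med22 and Taf4 the summit was nearer to the start of the neighbouring gene. Their peaks did not reach the Med22 TSS, 19 bp away, or the Taf4 TSS, 222 bp away. Med22 and Taf4 count as occupied only through the 1000 bp limit. At 5 occupied genes of the pathway (Polr2a, Cdk12, Hexim1, Aff4 and Ercc3) no TSS of another gene was within 1000 bp. Over all 9 occupied genes of the pathway, 4 were called in replicate 1 alone, 3 in replicate 2 alone and 2 in both.

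**Figure D4:**
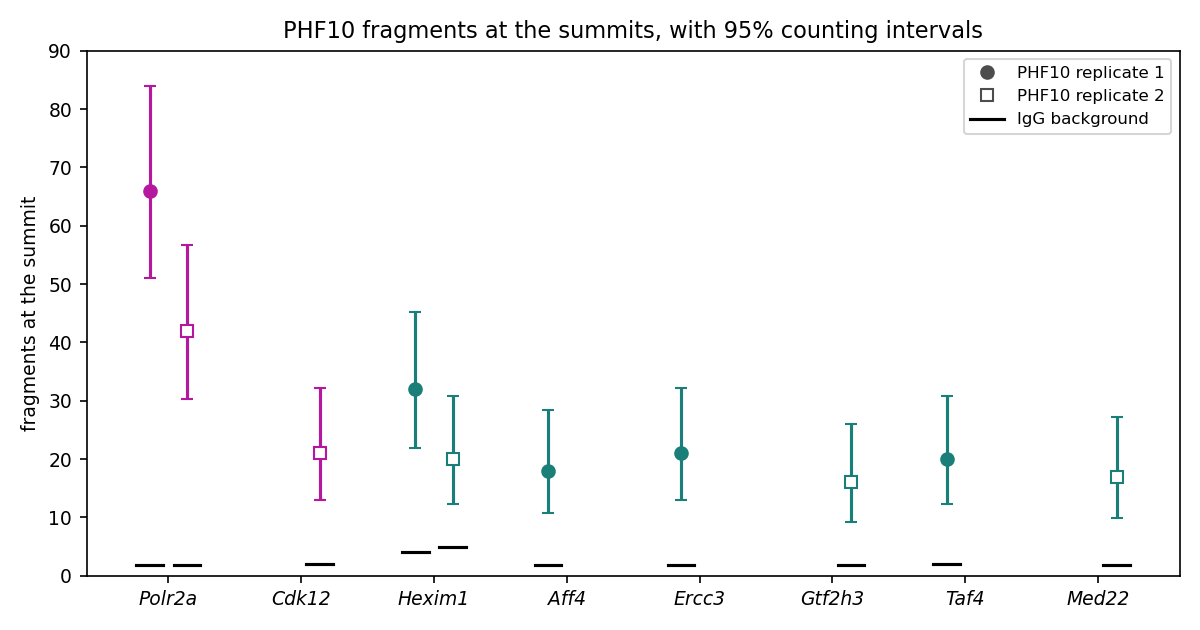
Fragments at the summit of each PHF10 peak (vertical axis) for 8 occupied genes of the polymerase II pathway, with 95% Poisson counting intervals, beside the IgG background used for that peak (black lines). Polr2a has 66 and 42 fragments, and the 6 plotted genes that are not members have 16 to 32.

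Of the 9 occupied pathway genes, 4 lay on chromosome 11 (Polr2a, Cdk12, Hexim1 and Aff4). That chromosome held 46 of the 303 PHF10 sites (15.2%) and 7.47% of the protein-coding genes. Members and lists were chosen with results of these data known, so this count was not tested and nothing is read from it. None of 19 subunit genes of RNA polymerases I and III had a peak, a count near the 1.4% over all protein-coding genes. Among 19 other cyclin-dependent kinases, Cdk10 had one in both replicates, with folds of 5.88 and 9.55. This is 5.26% of that list, against 0.401% of all protein-coding genes with a peak in both. The difference rests on 1 gene and was not tested.

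The chromatin came from whole tissue, so the lists cannot tell in which cells a promoter was occupied, and fewer occupied cells and weaker binding per cell cannot be told apart. Of 10 neuron markers, Rbfox3 and Elavl3 had a peak, and of 8 markers of cerebellar granule cells, Neurod1, Zic1, Zic4 and Pax6 had one. The Pax6 peak was in replicate 1 only, with its summit 946 bp from the nearest Pax6 TSS. The Neurod1 summits were 116 and 147 bp from its TSS, and 150 and 181 bp from that of Cerkl. The marker lists were also written with earlier results of these data known, so these counts were not tested and nothing is read from them. None of 25 markers of astrocytes, oligodendrocytes, microglia and endothelium had a peak. With 1.4% of all protein-coding genes occupied, a count of 0 in 25 is near the background and says nothing about the cell types in the tissue.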

How the data were processed

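PHF10 occupancy was measured by ChIP-seq in 2 replicates, with 1 IgG control. Per the methods of the study, the authors trimmed single-end reads with Cutadapt, aligned them to mm10 with Bowtie 1, kept uniquely aligned reads, removed duplicates with Picard, called peaks in each replicate with MACS2 against IgG (reads extended to 200 bp, p below 1e-05) and discarded blacklisted regions. The authors deposited, per peak, a score, a fold over the IgG background, −log10 p and −log10 q. The deposited fold adds 1 to both terms, which lowers it. The methods name biological replicates without saying whether each is a separate animal, so their spread may be partly technical.

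Depth was not stated in the lists. Fold and p together gave whole fragments at each summit (tolerance of 0.001 where the scaled number is rounded down; largest misfit 0.000149 in −log10 p), a step tested on simulated data, and relative depths of 1.38 and 1.14 times the IgG library. Peaks sharing at least 1 bp were merged. Peaks were compared with all GENCODE M21 TSSs by position, with Python 3.11.15, pandas 2.3.3, numpy 2.4.6, scipy 1.17.1, pysam 0.24.0 and matplotlib 3.10.9. All 392 peaks lay inside the chromosomes of the GRCm38 reference. Intervals are exact 95% Poisson intervals. No test was run, since there is 1 condition. Members and lists were chosen with earlier results of these data known. Named are the members, list genes with a peak, genes sharing a member peak and the 3 sites nearest in fold, except 1 list gene and 1 of these sites, which are counted but not reported here; Tob1 was named after its value was seen. Alternatives covered windows, thresholds, ranking, and each replicate left out.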

Additional observations from a re-analysis of the deposited data

How the results depend on the processing

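The number of members with a peak was 2 under windows of 500 and 2000 bp, with the summit in place of the peak, with TSSs of protein-coding transcripts only, at −log10 p of at least 7 and at q under 0.05. It was 1, Polr2a, with a window of 200 bp and for sites called in both replicates, and leaving out a replicate gave 1 to 2. Without replicate 2, Cdk12 was not called. The 9 pathway genes with a peak became 2 for sites called in both replicates, and 5 without replicate 1 or 6 without replicate 2. With a window of 200 bp they were 7 and with 2000 bp 11. The mean fold of Polr2a was 22.8 as a plain ratio without the added 1, and 13.2 to 17.1 with a replicate left out. The Cdk12 fold was 9.18 as a plain ratio. Polr2a ranked 1 by the mean −log10 p (4 of 141 in replicate 2 alone), by the plain ratio, among all sites and with summits within 100 bp, 1 to 2 with a replicate left out, and 4 by fragments at the summit, a measure that does not divide by the IgG background. On nuclear chromosomes only, an alternative added after the data were seen, the rank by fragments was 2. No paired analysis was possible because there is a single PHF10 group and the IgG control has 1 library. Depth limits what the lists can show: no listed summit had fewer than 13 fragments, so weaker occupancy is not seen.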

Other observations

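Among 26 genes of PBAF and BAF subunits, to which PHF10 itself belongs, Actb was the only one with a PHF10 peak, in replicate 1 (fold 5.68, summit 4 bp from the TSS). This is 3.85% of the list, against 1.4% of all protein-coding genes, a difference of shares that rests on 1 gene and was not tested. Phf10, Brd7, Pbrm1 and Arid2, the genes of the subunits particular to PBAF, had no peak, as is the case for most genes. Cdk10, a kinase outside the CTD kinases studied here, had summits 53 and 4 bp from its TSS in replicates 1 and 2, with 23 and 30 fragments, and ranked 121 of 251 and 12 of 141 by fold.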
